A study of Marchantia polymorpha with 9 samples.

Results

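MpBHLH12ox#2 and MpBHLH12ox#3 are independent overexpression lines of the liverwort Marchantia polymorpha, called line 2 and line 3 here, and their transcript levels were compared with each other gene by gene. A gene entered the comparison when it had 1 FPKM (fragments scaled for gene length and for the size of the library) or more in either line, which 13127 of the 19287 genes of the table did. The difference between the lines was taken as log2(FPKM + 1) in line 3 minus log2(FPKM + 1) in line 2, and genes with a difference of 1 or more in size are described as apart. These were 80 genes (0.609% of the genes compared), of which 57 were higher in line 3 (0.434%) and 23 were higher in line 2 (0.175%). Since the size of the difference chose these genes, their differences are given as a description and were not tested.

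Both lines carry MpBHLH12 joined to the yellow fluorescent protein Citrine under the constitutive 35S promoter, and each is a single transformant of Tak-1, the male wild type. Untransformed Tak-1 was the control, and RNA came from 3-week-old thalli, the flat plant body, with no further treatment named in the labels. The labels list 3 replicates in each of the 3 groups, 9 samples in all. The FPKM analysed here are the 1 average per group that the authors deposited, so neither library depth nor replicate error is known, and no difference below could be set against it.

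MpBHLH12 encodes a basic helix-loop-helix transcription factor of the IIIf clade. In Arabidopsis thaliana, IIIf proteins such as GLABRA3 and TRANSPARENT TESTA8 bind R2R3-MYB and WD40 proteins, and these complexes control trichome and root hair patterning and the synthesis of anthocyanin. T-DNA enters the genome at a place that differs between transformants, and independent lines of 1 construct are grown so that features common to the construct can be told from those of a single line.

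MpBHLH12 itself (Mapoly0031s0161) had 20.3 FPKM in Tak-1, 547.6 in line 2 and 474.6 in line 3. The lines thus differed by -0.21 in this gene, with the higher value in line 2. The value cannot tell the transcript of the transgene from that of the native gene. EF1alpha (Mapoly0024s0116), a translation elongation factor used as a reference transcript in the study, had 3564.5 FPKM in Tak-1, 4056.7 in line 2 and 3955.6 in line 3, with a difference of -0.04 between the lines. The FPKM of all genes added up to 667308 in Tak-1, 642294 in line 2 and 638116 in line 3. Genes with an identifier of the Y chromosome scaffolds, which only males carry, numbered 113, of which 38 entered the comparison. These 38 added up to between 934.2 and 948.7 FPKM in the 3 groups, and none was apart. Photosystem and chlorophyll genes, which a green thallus expresses, were known only from the 10% of genes whose annotation rows were held, and these added up to 4983 FPKM in Tak-1, 3615 in line 2 and 3552 in line 3 over 11 genes.

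Most genes had nearly the same average in both lines. The median difference was 0.01, with a standard deviation over genes of 0.22, and the middle 90% of genes lay between -0.24 and 0.34. Line 3 was the higher line in 7046 genes (53.7%) and line 2 in 6081. The upper tail was wider than the lower one, since the 1st percentile was -0.54 and the 99th was 0.73. For scale, 515 genes (3.92%) lay 1 or more from Tak-1 in line 2 and 567 (4.32%) in line 3, on the same scale and over the same genes. In line 2, 286 of them (2.18%) were above Tak-1 and 229 (1.74%) below, and in line 3, 369 (2.81%) were above and 198 (1.51%) below.

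**Figure D1:**
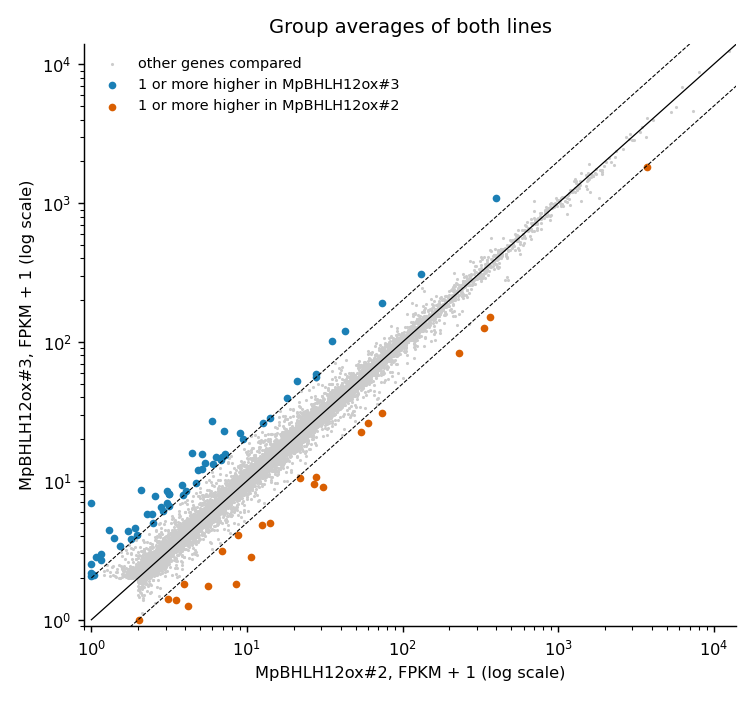
Average FPKM + 1 of each compared gene in MpBHLH12ox#2 (horizontal, log scale) and MpBHLH12ox#3 (vertical, log scale). The solid line marks equal values and the broken lines a log2 difference of 1, with the 57 genes apart toward MpBHLH12ox#3 in blue and the 23 toward MpBHLH12ox#2 in orange.

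The genes apart were mostly of low to middle abundance. Their higher FPKM of the lines had a median of 9.18, against 14.7 over all genes compared, and 23 of the 80 were under 5 FPKM in both lines. Among genes with 1 to 3 FPKM in their higher line, 14 of 1563 were apart (0.896%). The share was 0.271% (7 of 2582) between 30 and 100 FPKM and 0.945% (9 of 952) at 100 FPKM or more. At low FPKM a difference rests on few fragments, and how far this set the differences was not tested. With 5 added to each FPKM in place of 1, which holds down differences of low values, 13 genes were apart toward line 3 and 13 toward line 2.

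Nearest to the limit in the direction of line 3 were Mapoly0145s0020 (1.00) and Mapoly0097s0009 (1.01) on the inside and Mapoly0027s0165 (0.99) and Mapoly0040s0030 (0.99) on the outside. In the direction of line 2 they were Mapoly0067s0001 (-1.02) and Mapoly0015s0004 (-1.02) inside and Mapoly0152s0025 (-0.98) and Mapoly0033s0038 (-0.96) outside. Genes on both sides of the limit thus differed by a few hundredths of a log2 unit, and the counts depend on where it was set.

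Tak-1 was used to see which line stood away from the wild type. Of the 80 genes, 33 lay 1 or more from Tak-1 in line 3 only, 16 in line 2 only, 11 in both lines and 20 in neither. Over all genes compared the same classes held 194 (1.48%), 142 (1.08%), 373 (2.84%) and 12418 (94.6%) genes. A gene that is apart between the lines must differ from Tak-1 by 0.5 or more in at least one of them, so the shares among the 80 are set in part by the rule. With 5 added to each FPKM in place of 1, the order of the lines turned, with 8 genes departing in line 3 only and 11 in line 2 only. Line 2 was the line nearer to Tak-1 in 47 genes and line 3 in 33.

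The most frequent class in each direction was a departure above Tak-1 in the higher line only. It held 30 of the 57 genes higher in line 3 and 11 of the 23 higher in line 2. Of the 33 genes departing in line 3 only, 30 were above Tak-1, and in 24 of the 33 line 2 stayed within 0.5 of Tak-1. Of the 16 departing in line 2 only, 11 were above Tak-1 and 5 below, and line 3 stayed within 0.5 of Tak-1 in 14. Of the 11 genes departing in both lines, 9 were above Tak-1 and 2 below, and in none did the lines depart in opposite directions. Tak-1 lay below both lines in 37 of the 80 genes, between them in 36 and above both in 7.

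**Figure D2:**
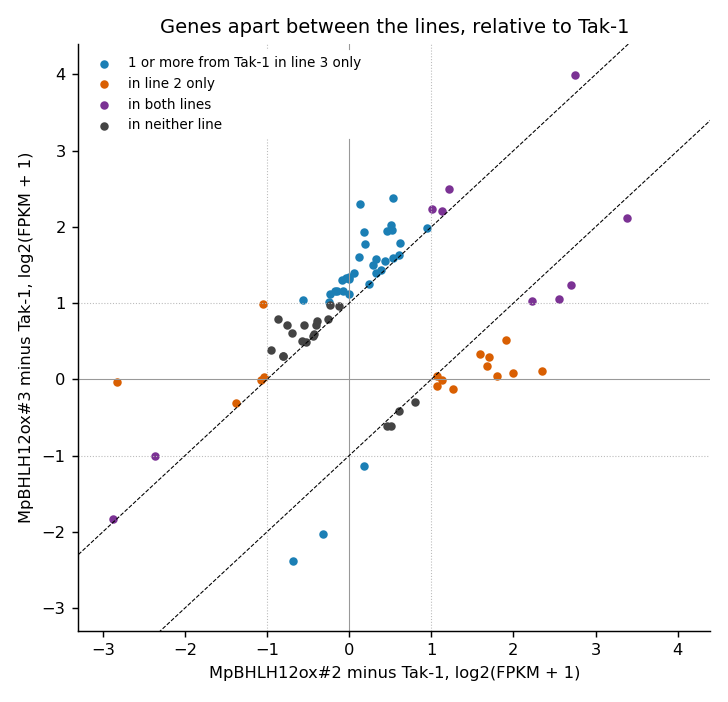
Log2(FPKM + 1) of MpBHLH12ox#2 minus Tak-1 (horizontal) and of MpBHLH12ox#3 minus Tak-1 (vertical) for 79 of the 80 genes apart between the lines. Broken lines mark a difference of 1 between the lines, dotted lines a difference of 1 from Tak-1. The 33 points in blue are 1 or more from Tak-1 in line 3 only, and the gene left out, Mapoly0035s0093, lies outside the axes at 8.36 and 7.10.

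Across the 57 genes higher in line 3 the median FPKM was 3.35 in Tak-1, 2.87 in line 2 and 7.61 in line 3. These medians do not show how near line 2 was to Tak-1 in each gene. Line 2 was the line nearer to Tak-1 in 42 of the 57 and line 3 in 15. The change of line 2 from Tak-1 ranged from -2.88 (Mapoly0027s0052) to 2.75 (Mapoly0118s0026). In 30 of them line 3 only was 1 or more from Tak-1, each time above it, with a median change of 1.47. In 5, line 2 only was 1 or more from Tak-1, each time below it, with a median change of -1.08. Of the 57, 15 were under 1 FPKM in line 2 and 26 reached 10 FPKM or more in a line.

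Mapoly0050s0107 had 4.49 FPKM in Tak-1, 4.99 in line 2 and 26.1 in line 3, a difference of 2.18 between the lines. Mapoly0047s0008 had 2.06 FPKM in Tak-1, 3.42 in line 2 and 14.9 in line 3, a difference of 1.85. Mapoly0377s0001 had 3.54 FPKM in Tak-1, 4.17 in line 2 and 14.5 in line 3, a difference of 1.58. In these genes line 3 was the highest group, and line 2 was within 0.5 of Tak-1 in the first and the last of them and 0.53 above it in Mapoly0047s0008.

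Mapoly0069s0092 had 23.9 FPKM in Tak-1, 34.4 in line 2 and 100.5 in line 3, a difference of 1.52. Mapoly0030s0003 had 1.20 FPKM in Tak-1, 2.04 in line 2 and 7.51 in line 3, a difference of 1.48. Mapoly0044s0099 had 0.15 FPKM in Tak-1, 0.30 in line 2 and 3.41 in line 3, a difference of 1.76. The order was the same in the 3 genes, with line 2 above Tak-1 by less than line 3 was above line 2.

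A different order was seen in 4 of the 10 genes with the highest differences, where line 2 was below Tak-1. Mapoly0128s0034 had 3.35 FPKM in Tak-1, 1.09 in line 2 and 7.61 in line 3, a difference of 2.04. Mapoly0071s0105 had 12.1 FPKM in Tak-1, 6.15 in line 2 and 21.7 in line 3, a difference of 1.67, and neither line was 1 or more from Tak-1. In both genes Tak-1 lay between the lines. Mapoly0307s0003 also had its wild-type value between the lines, with 2.79 FPKM in Tak-1, 1.56 in line 2 and 6.76 in line 3, a difference of 1.60. Mapoly0248s0005 had 6.11 FPKM in Tak-1 and 5.95 in line 3 and was listed at 0 in line 2, so no ratio of the FPKM themselves was formed. Its difference of 2.80 was the highest of all genes compared. That value rests on the amount added, since it was 5.92 with 0.1 added in place of 1 and 1.13 with 5. Mapoly0248s0005 was the only one of the 10 in which line 3 was at the wild-type level and line 2 was not.

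Among the most abundant genes higher in line 3, Mapoly0116s0036 had 278.7 FPKM in Tak-1, 399.1 in line 2 and 1085.9 in line 3, a difference of 1.44. Mapoly0118s0026 had 18.5 FPKM in Tak-1, 130.5 in line 2 and 309.1 in line 3, so both lines were far above Tak-1, by 2.75 and 3.99, and apart by 1.24. Mapoly0117s0024 and Mapoly4316s0001, picked for their level after the values were seen, had almost no change in line 2. Mapoly0117s0024 had 74.8 FPKM in Tak-1, 72.9 in line 2 and 189.9 in line 3. Mapoly4316s0001 had 38.5 FPKM in Tak-1, 41.9 in line 2 and 118.7 in line 3. Mapoly0027s0052, also picked after its values were seen, was lower than Tak-1 in both lines, with 91.7 FPKM in Tak-1, 11.6 in line 2 and 25.1 in line 3.

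Across the 23 genes higher in line 2 the median FPKM was 4.01 in Tak-1, 13.1 in line 2 and 3.96 in line 3. Line 2 only was 1 or more from Tak-1 in 11 of them, each time above it, with a median change of 1.68, and line 3 was within 0.5 of Tak-1 in 10 of these 11. In 3 genes line 3 only was 1 or more from Tak-1, each time below it, with a median change of -2.03. Both lines were 1 or more above Tak-1 in 5 genes and neither was 1 or more away in 4.

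Mapoly2364s0001 had 0.68 FPKM in Tak-1, 7.53 in line 2 and 0.80 in line 3, a difference of -2.24. Mapoly3858s0001 had 1.69 FPKM in Tak-1, 9.66 in line 2 and 1.85 in line 3, a difference of -1.91. Mapoly4156s0001 had 3.39 FPKM in Tak-1, 13.1 in line 2 and 3.96 in line 3, a difference of -1.51. Each of these is the single gene of its scaffold, and in each line 3 stood at the wild-type level. Mapoly0087s0014 had 7.79 FPKM in Tak-1, 29.6 in line 2 and 8.04 in line 3, a difference of -1.76. Mapoly0112s0056 had 2.34 FPKM in Tak-1, 11.5 in line 2 and 3.80 in line 3, a difference of -1.38. Both lie on larger scaffolds and likewise had line 3 nearer to Tak-1.

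In 2 of the 10 genes with the most negative differences the departure was a lower value in line 3. Mapoly0185s0004 had 4.17 FPKM in Tak-1, 3.16 in line 2 and 0.26 in line 3, a difference of -1.72. Mapoly0059s0012 had 8.08 FPKM in Tak-1, 4.63 in line 2 and 0.74 in line 3, a difference of -1.70. Line 3 was under 1 FPKM in both, where the added 1 holds the difference down.

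**Figure D3:**
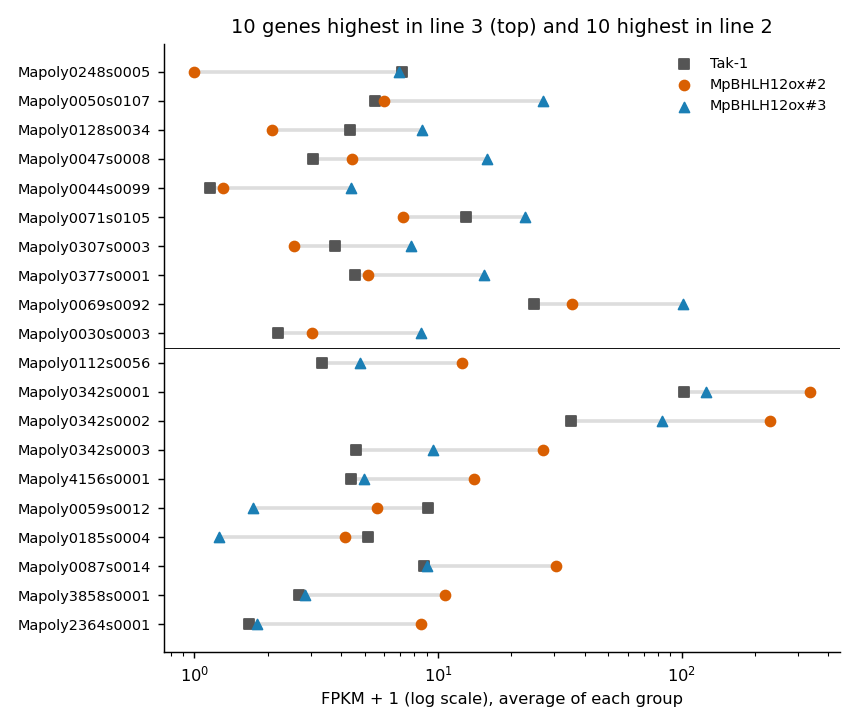
Average FPKM + 1 (log scale) of Tak-1 (squares), MpBHLH12ox#2 (circles) and MpBHLH12ox#3 (triangles) for the 10 genes with the highest difference in favour of line 3 and the 10 with the highest in favour of line 2, ordered by the difference. In some rows the square lies beside the symbol of the lower line, as for Mapoly0050s0107 with 4.49 FPKM in Tak-1 and 4.99 in line 2, and in others between the lines, as for Mapoly0071s0105, or above both, as for Mapoly0059s0012.

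Among the most abundant genes higher in line 2, Mapoly0067s0001 had 1778 FPKM in Tak-1, 3716 in line 2 and 1835 in line 3, a difference of -1.02. It had the highest FPKM of the 80 genes. Mapoly0035s0093 had 0.11 FPKM in Tak-1, 364.4 in line 2 and 151.3 in line 3, a difference of -1.26. Its levels in both lines were far above Tak-1, and the difference between the lines was small beside the changes of 8.36 and 7.10. Mapoly1233s0001, picked after its values were seen, had 6.11 FPKM in Tak-1, 73.2 in line 2 and 29.9 in line 3.

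The 20 genes apart with neither line 1 or more from Tak-1 had the wild-type value between the lines, by construction of the rule. They comprised 16 genes higher in line 3 and 4 higher in line 2. Mapoly0098s0001 had 11.6 FPKM in Tak-1, 6.20 in line 2 and 14.5 in line 3, and the next gene, Mapoly0098s0002, had 8.12, 5.86 and 13.9 FPKM in the same order of groups. Mapoly0145s0020 had the highest level among the 20, with 36.5 FPKM in Tak-1, 26.7 in line 2 and 54.5 in line 3.

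The lines were also compared over genes grouped by their change from Tak-1. The 208 genes 1 or more above Tak-1 in both lines had a median difference of -0.06, and line 3 was higher in 45.2% of them, against 53.7% over all genes compared. Of the 208, 9 were apart (4.33%), 4 toward line 3 and 5 toward line 2. The 165 genes 1 or more below Tak-1 in both lines had a median of 0.08, line 3 was higher in 60.6%, and 2 were apart (1.21%). When the mean of both changes was used in place of each, the side of the genes above Tak-1 turned. The 303 genes with a mean increase of 1 or more had a median difference of 0.02 between the lines, and line 3 was higher in 53.5% of them. Of the 303, 23 were apart (7.59%), 14 toward line 3 and 9 toward line 2. The 209 genes with a mean decrease of 1 or more had a median of 0.09, and line 3 was higher, that is nearer to Tak-1, in 61.7%. Of these 209, 5 were apart (2.39%). Of the 12615 genes with a mean change under 1, 52 were apart (0.412%). These groups were defined after the values were seen, and a large change in a single line also raises the mean of both.

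The genes apart were spread over 60 of the 527 scaffolds with a compared gene. A scaffold is a stretch of assembled sequence, and the number after the letter s in an identifier gives the place of the gene in the order along it, without a distance in bases. Of the 80 genes, 36 lay on 16 scaffolds with more than 1 of them. A gene apart stood directly beside another in 13 genes (16.2% of the 80). Over all genes compared 0.609% were apart, and a gene can have a neighbour on each side. In all 13 the neighbours differed in the same direction, while 57 of the 80 were toward line 3. The 13 genes form a few runs, so they are not separate cases. The runs were Mapoly0037s0001 to Mapoly0037s0003, Mapoly0098s0001 and Mapoly0098s0002, Mapoly0128s0033 to Mapoly0128s0035, Mapoly0342s0001 to Mapoly0342s0003, and Mapoly0377s0001 and Mapoly0377s0002.

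On small scaffolds a larger share of the compared genes was apart. On scaffolds of 5 genes or fewer 16 of 362 compared genes were apart (4.42%), 9 toward line 2 and 7 toward line 3, against 64 of 12765 (0.501%) on larger ones, 14 toward line 2 and 50 toward line 3. Scaffolds with a single gene held 8 of 223 (3.59%), of which 6 were higher in line 2. The difference between the lines also varied more on the small scaffolds, with a standard deviation over genes of 0.42 against 0.21. The median of the higher FPKM was 10.8 on the small scaffolds and 14.8 on the larger ones. On the larger scaffolds, 11 of the 439 compared genes numbered 1 to 3 were apart (2.51%).

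**Figure D4:**
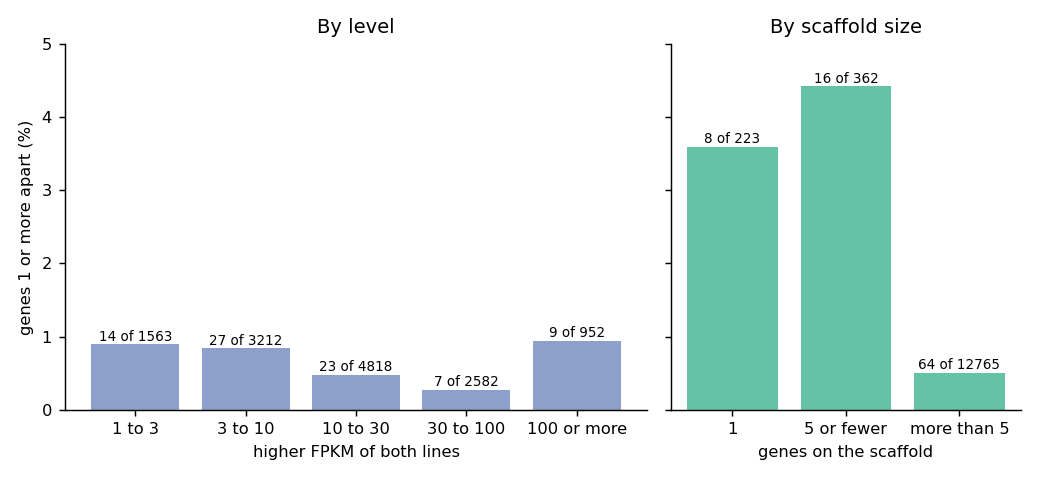
Share of compared genes that were 1 or more apart between the lines (vertical, percent), by the higher FPKM of both lines (left) and by the number of genes on the scaffold (right, where the bar for 5 or fewer includes scaffolds with 1 gene). The labels give the genes apart of the genes compared. The bar for scaffolds with 5 genes or fewer, at 4.42%, stands above that for larger scaffolds, at 0.501%.

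Genes beside a gene apart also tended to its direction. Of 68 direct neighbours that were compared and not apart themselves, 50 (73.5%) differed in the direction of the gene apart, with a median of 0.09 in that direction. Line 3 was higher in 53.7% of all genes compared and in 57 of the 80 genes apart. The share of neighbours that would match from this lean alone was not computed. A difference of 0.5 or more was found in 16.2% of the 68, against 2.94% over all genes not apart. It lay in the direction of the gene apart in 10 and in the other in 1.

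Stretches of neighbouring genes were therefore listed, by a rule chosen after the values were seen. From each gene apart, the stretch was extended over compared genes as long as they differed by 0.3 or more in the same direction, a step that 9.53% of the compared genes reach, so the common direction within a stretch is fixed by the rule. Stretches of 3 genes or more numbered 9, with 39 genes, 17 of them apart. Line 3 was higher in 7 stretches and line 2 in 2, and 7 of the 9 reached the first 2 genes or the last gene of the scaffold. Of these 7, 2 held every compared gene of their scaffold and so reached an end in any case. How many stretches would reach an end by position alone was not computed. Reads that fit several related genes could move neighbours together, which was not tested.

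On scaffold 37, the first 3 genes were all apart toward line 3. Mapoly0037s0001 had 1.00 FPKM in Tak-1, 2.06 in line 2 and 5.91 in line 3. Mapoly0037s0002 had 2.16, 5.36 and 13.8 FPKM in the same order, and Mapoly0037s0003 had 3.34, 8.50 and 19.2. The ratio of line 3 to line 2 lay between 2.26 and 2.86 in the 3 genes, while the flanking genes had a median log2 difference of 0.06. Both lines were above Tak-1 in each.

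All 6 genes of scaffold 243 were higher in line 3, and all were above Tak-1 in both lines. The change from Tak-1 lay between 0.53 and 1.14 in line 2 and between 1.30 and 1.99 in line 3. The median difference of the lines was 0.56, the highest among scaffolds with 5 or more compared genes. The gene with the highest level, Mapoly0243s0001, had 63.4 FPKM in Tak-1, 115.6 in line 2 and 157.6 in line 3, and Mapoly0243s0004, one of the 2 genes apart there, had 1.20, 2.18 and 5.61. The differences between the lines thus had 1 direction on this scaffold over levels from a few FPKM to more than 100.

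On scaffold 47, 6 compared genes numbered 2 to 8 were higher in line 3, with a median difference of 0.53, and 2 of them were apart. Mapoly0047s0007, the most abundant, had 73.4 FPKM in Tak-1, 105.3 in line 2 and 157.4 in line 3. Mapoly0047s0006 had 4.21, 5.83 and 13.1 FPKM. On scaffold 30, Mapoly0030s0004, next to the gene described above, had 24.2 FPKM in Tak-1, 35.7 in line 2 and 70.2 in line 3, a difference of 0.96. Line 2 was between Tak-1 and line 3 in each of these genes.

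On scaffold 128, the last 3 genes of the scaffold were apart toward line 3, and line 2 was below Tak-1 in each. Their change from Tak-1 lay between 0.98 and 1.12 in line 3 and between -1.06 and -0.23 in line 2. Mapoly0128s0033 had 2.70 FPKM in Tak-1, 2.15 in line 2 and 7.03 in line 3, and Mapoly0128s0035 had 0.37, 0.16 and 1.69. The lines thus lay on opposite sides of Tak-1 over these 3 neighbours. On scaffold 149, the first 3 genes were higher in line 3, of which Mapoly0149s0003 was apart, with 1.29 FPKM in Tak-1, 1.81 in line 2 and 5.50 in line 3.

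A stretch on scaffold 27 differed from the others in that both lines were below Tak-1. It held 7 compared genes numbered 165 to 172, with 4.71 to 13.5 FPKM in Tak-1, 0.16 to 1.38 in line 2 and 1.06 to 3.03 in line 3. The median change from Tak-1 was -2.49 in line 2 and -1.56 in line 3. Mapoly0027s0172, with 4.97 FPKM in Tak-1, 0.16 in line 2 and 1.98 in line 3, was the only gene apart in this stretch, and the median difference of the 7 genes was 0.79. The 10 flanking genes had a median difference of -0.02, and their median change from Tak-1 was -0.03 in both lines. Flanking genes were taken from compared genes only, so a neighbour under 1 FPKM in both lines could not appear among them. Mapoly0027s0171, inside the stretch, was left out in this way, with 6.25 FPKM in Tak-1, 0.33 in line 2 and 0.92 in line 3. The next gene after the stretch, Mapoly0027s0173, was compared and was below Tak-1 in neither line. It had 5.07 FPKM in Tak-1, 7.66 in line 2 and 5.75 in line 3. Where the lower level begins on the other side is not settled by these medians.

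The stretches higher in line 2 lay on scaffolds 342 and 87. All 3 genes of scaffold 342 were apart. Mapoly0342s0001 had 101.7 FPKM in Tak-1, 334.5 in line 2 and 124.8 in line 3, Mapoly0342s0002 had 34.2, 228.7 and 81.8, and Mapoly0342s0003 had 3.60, 26.0 and 8.57. The ratio of line 2 to line 3 lay between 2.68 and 3.04 over levels that differed widely between the genes. On scaffold 87, 4 compared genes numbered 14 to 18 were higher in line 2, with a median difference of -0.73, and their place relative to Tak-1 was mixed. Mapoly0087s0015 had 60.6 FPKM in Tak-1, 172.5 in line 2 and 115.0 in line 3, above Tak-1 in both lines. Mapoly0087s0018 had 92.4, 56.9 and 40.4 FPKM, below Tak-1 in both.

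**Figure D5:**
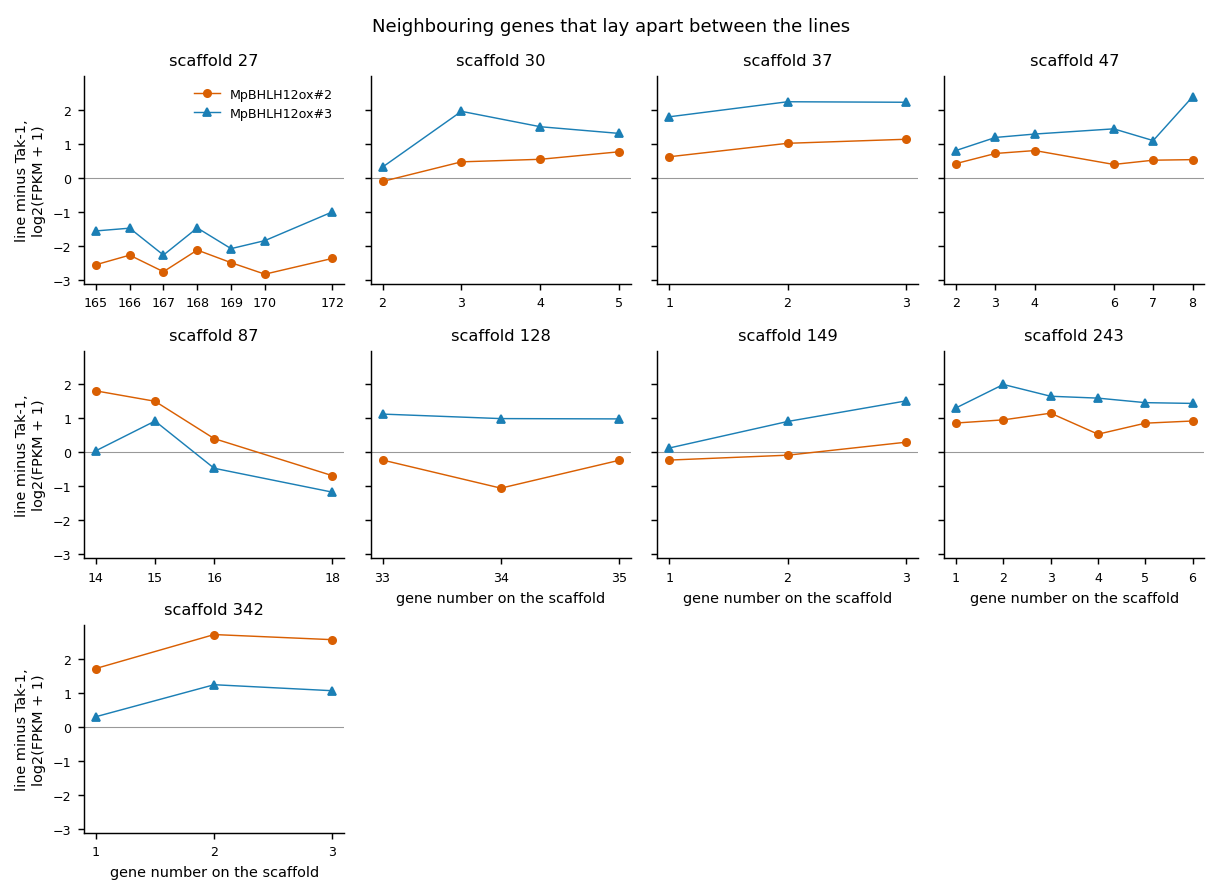
Log2(FPKM + 1) minus Tak-1 of MpBHLH12ox#2 (circles) and MpBHLH12ox#3 (triangles) for the compared genes of the 9 stretches, by gene number on the scaffold. The zero line is the Tak-1 level. The 7 genes of scaffold 27 lie below it in both lines, and the 3 genes of scaffold 342 have line 2 above line 3.

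Annotations were at hand for 2 of the 80 genes. Mapoly0001s0001 is annotated as a type II intron maturase, a class of proteins that take part in splicing organelle introns, and had 0.41 FPKM in Tak-1, 2.10 in line 2 and 0.41 in line 3, a difference of -1.14. Mapoly0044s0114 is annotated as a phenylalanine ammonia lyase, the enzyme of the first step of the phenylpropanoid pathway. It had 3.31 FPKM in Tak-1, 1.90 in line 2 and 5.12 in line 3, a difference of 1.08, with changes from Tak-1 of -0.58 and 0.50. Neither line was thus 1 or more from the wild type in this gene. Mapoly0044s0115, the next gene, is annotated as a polyketide/chalcone synthase and had 2.46, 4.58 and 5.21 FPKM, a difference of 0.15.

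The study's list of shikimate, phenylpropanoid and flavonoid pathway genes was compared between the lines as a whole. Of its 82 genes 74 were compared, and Mapoly0044s0114 was the single one apart, beside 0.609% of all genes compared. The median difference of the list was 0.03, against 0.01 over all genes, with 44 genes higher in line 3 and 30 higher in line 2. A difference of 0.5 or more was found in 3 of the 74, all toward line 3, which is near the share over all genes compared, where 464 (3.53%) differed so, 308 (2.35%) toward line 3 and 156 (1.19%) toward line 2. Besides the lyase these were Mapoly0041s0118, with 10.8 FPKM in Tak-1, 11.5 in line 2 and 18.4 in line 3 (0.63), and Mapoly0009s0178, with 15.3, 15.9 and 24.0 FPKM (0.56). Both are listed as polyketide/chalcone synthase, and line 2 was near Tak-1 in each.

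By step of the pathway, counts are read beside the 53.7% of all compared genes that were higher in line 3. Phenylalanine ammonia lyase genes were higher in line 3 in 8 of 10, with a median of 0.03. The cinnamate 4-hydroxylase genes, for the next step, were higher in line 3 in 3 of 3, with a median of 0.14. The 4-coumaroyl CoA ligase genes, which follow, were higher in line 2 in 2 of 3, with a median of -0.05. The family listed as polyketide/chalcone synthase includes the enzyme that starts flavonoid synthesis. Its genes were higher in line 3 in 14 of 19, with a median of 0.22. Their summed FPKM was slightly lower in line 3, at 1539 against 1557 in line 2. The most abundant of them, Mapoly0070s0062, had 557.1 FPKM in line 2 and 462.5 in line 3. Without the genes on scaffold 70, where several members lie together, line 3 was higher in 9 of 11, with a median of 0.30. These added up to 397.7 FPKM in line 2 and 459.2 in line 3. This split was not among the planned lists, and it leaves out Mapoly0070s0062. Genes annotated with the 2-oxoglutarate oxygenase domain, found in later flavonoid enzymes, were higher in line 2 in 3 of 4, with a median of -0.34. Those listed with the NAD-dependent epimerase/dehydratase domain were so in 3 of 4, with a median of -0.08. The UDP-glucosyl and UDP-glucuronosyl transferase genes went the other way, higher in line 3 in 6 of 8, with a median of 0.06. Arogenate dehydratase genes were higher in line 3 in 2 of 4, with a median of -0.01. The steps thus showed no single order between the lines. Reads shared among members of these families could be split between them, which was not tested.

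Other gene groups are given beside the same 3.53% of all genes compared, of which groups this small need hold none. Of the 12 basic helix-loop-helix genes of the study's phylogeny 8 were compared, and none was 0.5 or more apart. The lowest difference was that of Mapoly0013s0167, with 1.42 FPKM in Tak-1, 6.55 in line 2 and 4.61 in line 3 (-0.43). Of 6 genes used as quantitative PCR targets 4 were compared, and none was 0.5 or more apart. Groups by annotation cover only the 10% of genes whose annotation rows were held. Among these, cytochrome P450 genes, a family of oxidases with many roles in secondary metabolism, were higher in line 2 in 8 of 9, with a median of -0.20. Kinase genes were higher in line 3 in 56 of 83, with a median of 0.03. Over the 1160 compared genes with an annotation held, line 3 was higher in 49.6%. In the other groups by annotation this share was 42.9% for oxidation-reduction, 46.7% for transport and 48.8% for ribosomal genes. It was 41.7% for heat shock or chaperone genes, 39.5% for zinc finger or DNA binding genes and 36.4% for photosystem and chlorophyll genes. Peroxidase genes were higher in line 3 in 2 of 3 and cell wall genes in 4 of 6. The 11 photosystem and chlorophyll genes had a median of -0.10, and the lowest of them, Mapoly0004s0074, had 2.64 FPKM in Tak-1, 7.78 in line 2 and 3.92 in line 3 (-0.84). Of the 1160 genes compared with an annotation at hand in the annotation table, 1 was apart, Mapoly0001s0001, beside 0.609% of all genes compared. A difference of 0.5 or more was found in 5 of the 1160 toward line 3 and 7 toward line 2. The rows held are the first rows of that table, so they need not stand for all genes.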

How the data were processed

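RNA-seq reads of 9 samples, 3 each of Tak-1, MpBHLH12ox#2 and MpBHLH12ox#3, were mapped by the authors with Bowtie2 to the JGI 3.1 genome, counted with HTSeq and tested with edgeR. The submitters' processing notes also name Cuffdiff 2.2.1, with no role. Which program made the FPKM is not given in these sources. For each of 19287 genes, the deposited FPKM table of the authors has 1 average a group. Counts and replicate values were not analysed here, so the test planned for replicate values (limma) was not run and no depth or interval is given.

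From these averages, log2(FPKM + 1) was compared between the lines over genes with 1 FPKM or more in either line. The added 1 understates differences of genes with low FPKM. The genes named were the 10 most apart in each direction, the 5 most abundant genes apart, genes apart beside one another, genes apart with an annotation, pathway genes 0.5 or more apart, those nearest the limit, the study's basic helix-loop-helix and quantitative PCR genes, MpBHLH12 and EF1alpha, with the rest as counts. Others are said to have been picked after their values were seen. The members and lists were chosen with earlier results of these data known.

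Identifiers had 0 matches in the RefSeq table of assembly MpTak2_v7.1, so no sequence was printed. Annotations came from the study's pathway list of 82 genes and from the 1933 rows held of its annotation table. Alternatives tried were another pseudocount (0.1 or 5), a rescaling that set the median difference to 0, no filter or 5 FPKM, and sizes of 0.5 and 1.5. The computation was tested on simulated data. Python 3.11.15, numpy 2.4.6, pandas 2.3.3 and matplotlib 3.10.9 were used.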

Additional observations from a re-analysis of the deposited data

How the results depend on the processing

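The count of 80 genes apart was 157 with a pseudocount of 0.1, 26 with 5, 464 at a size of 0.5 and 15 at 1.5. With a pseudocount of 5 the split was 13 toward line 3 and 13 toward line 2, against 57 and 23, and with a filter of 5 FPKM it was 40 and 17. The cause was not tested. The 13 genes apart beside another became 3 with a pseudocount of 5, 94 at a size of 0.5, 0 at 1.5 and 21 when counted within 5 gene numbers. The 33 genes departing in line 3 only became 60 with a pseudocount of 0.1, 8 with 5, 145 at a size of 0.5 and 7 at 1.5. The 8 were fewer than the 11 that departed in line 2 only at that pseudocount of 5. The pathway list's 1 gene became 0 with a pseudocount of 5, 3 at a size of 0.5 and 0 at 1.5. Rescaling and the filters kept each of these counts within 1.5 times. MpBHLH12 stayed between -0.22 and -0.20 throughout. Of 35 named genes followed, 15 moved with a pseudocount of 0.1 and 27 with 5. Pseudocounts and filters cannot change a sign. No paired analysis was possible because each group has a single averaged column without a replicate number, and leaving out a replicate was not run for the same reason. Depth is unknown, so no lower limit of detection can be given.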
